A study of Mus musculus with 16 samples.

Results

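The 10 genes described here belong to the unfolded protein response of the endoplasmic reticulum (ER), on its XBP1 and ATF6 branches: Xbp1, Hspa5, Hsp90b1, Ern1, Atf6, Dnajb9, Sdf2l1, Herpud1, Pdia4 and Calr. They were selected on TPM by genotype and sex over all 16 libraries, as genes of a list drawn up with results of these data known, and 10 of 10 were found among the 49066 gene symbols of the deposited table. The levels that went into that choice are the levels given here, so every genotype or sex contrast of these 10 genes is a description, and nothing is read from it. Their level was taken as TPM, which is a transcript's share of a library's RNA per unit of transcript length scaled to a fixed sum, summed over the transcripts of each symbol in GENCODE mouse release M21.

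The samples are brown adipose tissue (BAT) of male and female mice after a high fat diet with 60% of energy from fat, sequenced as stranded poly(A) libraries. Each sex has 4 WT and 4 KO libraries, numbered 1 to 4 as in the labels, which makes 4 groups. KO mice (GDF15 BKO) carried floxed Gdf15 alleles and Cre recombinase under the Ucp1 promoter, and the WT mice were littermates with the floxed alleles and no Cre. All mice were C57BL6/J, started the diet at 6 weeks of age and stayed on it for 12 weeks, to an age of 18 weeks. The Ucp1 promoter directs Cre to brown adipocytes, so the other cells of the tissue keep Gdf15, and an effect of Cre itself cannot be told apart from that of the deletion. No group received a normal diet or an agent that stresses the ER, so each contrast compares genotypes or sexes on the high fat diet. The paper reports that on this diet male KO mice had more body weight and fat mass than WT, and female KO mice less. Genotype and body weight therefore cannot be told apart within either sex.

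As background, proteins that enter the ER fold with the help of chaperones and disulfide isomerases, and when unfolded protein builds up, sensors in the ER membrane raise the supply of those helpers. The sensor IRE1 (gene Ern1) cuts a short segment out of Xbp1 mRNA so that it encodes the active transcription factor, while ATF6 moves to the Golgi, is cleaved there and enters the nucleus as a transcription factor itself. In brown fat, the ER works beside a large demand for lipid and mitochondrial protein, and secreted factors such as GDF15 pass through it.

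The table held 137438 transcripts, of which 135051 matched the annotation by identifier and 2387 did not. Between 58140 and 65746 transcripts were above 0 in a library, and no pair of libraries was identical. Read counts are not in the table, so the sequencing depth behind each value is unknown. Transcripts of the mitochondrial genome took 51.5% ± 6.71 (SD, n = 4) of TPM in male WT, 48.1% ± 3.11 in male KO, 48.2% ± 10.3 in female WT and 47.2% ± 4.96 in female KO, from 34.5% in female WT 4 to 59.8% in male WT 1. Because TPM adds up to a fixed sum, this share changes the level of every other gene, and the differences of the 10 genes, of the pathway lists and of their named genes were recomputed with median-of-ratios factors and with nuclear scaling, which leaves out mitochondrial genes and also every transcript with no match. A further alternative, chosen after seeing the data, left out mitochondrial transcripts alone and kept those with no match in the sum. Single transcripts and sums of cell type markers were read as deposited and not rescaled. Female WT 4 stands apart from the other libraries: 17.7% of its TPM lay in transcripts with no match, 16.5% in a single transcript, against at most 0.480% in any other library. In female KO 1 the largest transcript belonged to Gm29216, at 8.60% of TPM. In every library but these, a mitochondrial gene held the largest transcript.

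Gdf15, the deleted gene, was low in every group. Male Gdf15 levels were 0.368, 0.690, 1.55 and 3.81 TPM in WT 1 to 4 and 0.0915, 0.0801, 0.255 and 0.272 TPM in KO 1 to 4, so every male KO library lay below every male WT library. Among females, Gdf15 read 0.0622, 0.311, 0.170 and 0.290 TPM in WT 1 to 4, and KO 1, 2 and 4 were listed at 0 while KO 3 read 0.0794 TPM, above WT 1. Its mean over 16 libraries, 0.502 TPM, is under the minimum of 1 TPM set for testing, so Gdf15 was not tested. Markers of the labelled tissue were present: 11 of 11 listed brown adipocyte genes had a mean of at least 1 TPM, and Ucp1 ranged from 2353 TPM in female KO 3 to 4423 TPM in female KO 4.

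The order of levels over the 16 libraries placed the abundant ER lumen chaperones first and the sensor and a small co-chaperone partner last. Mean TPM ± SD over 16 libraries was 118 ± 17.5 for Calr, 97.5 ± 13.4 for Hspa5, 63.7 ± 10.3 for Hsp90b1, 40.9 ± 8.55 for Herpud1 and 24.5 ± 5.39 for Xbp1. It was 10.9 ± 1.43 for Pdia4, 8.57 ± 2.39 for Dnajb9, 6.37 ± 0.924 for Atf6, 1.75 ± 0.218 for Ern1 and 1.68 ± 0.630 for Sdf2l1. Neighbours in this order differed by more than the larger SD of the pair except for Pdia4 and Dnajb9, Dnajb9 and Atf6, and Ern1 and Sdf2l1, and Ern1 was above Sdf2l1 in 10 of 16 libraries. All 10 genes passed the minimum mean of 1 TPM in each comparison, and 8 also passed a minimum of 5 TPM, which Ern1 and Sdf2l1 did not. The widest range belonged to Sdf2l1, whose highest library was 4.01 times its lowest, and the narrowest to Ern1 and Hspa5, at 1.56 and 1.57 times.

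**Figure D1:**
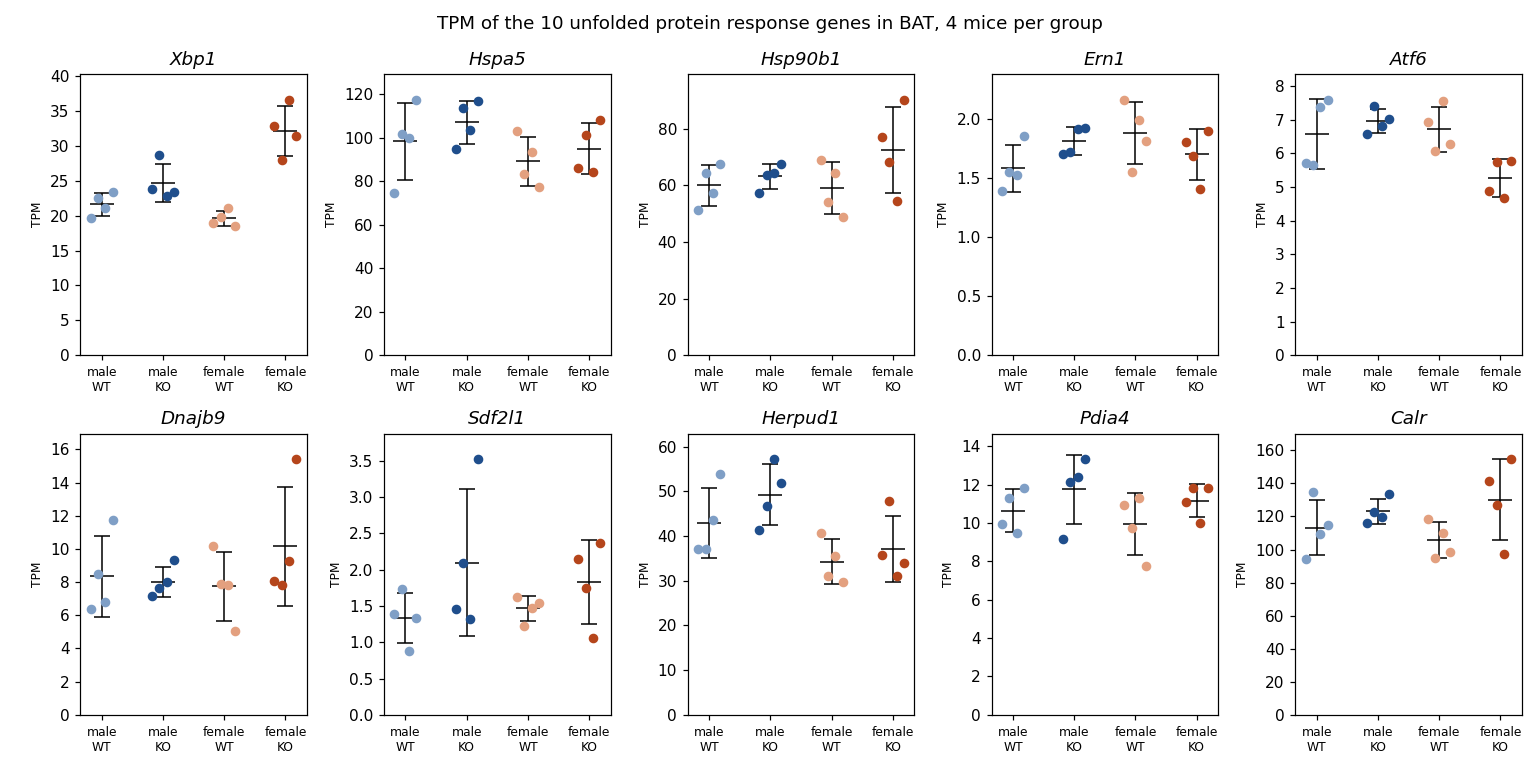
TPM of each of the 10 genes (y axis, linear from 0) in the 4 groups (x axis), with 1 point per library, a bar at the mean and whiskers of 1 SD (n = 4). Xbp1 in female KO lies between 27.9 and 36.6 TPM, above the 4 female WT libraries, and Atf6 in female KO lies between 4.66 and 5.78 TPM, below them.

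Xbp1 encodes the transcription factor that IRE1 activates. Male Xbp1 levels were 19.7, 22.5, 21.1 and 23.4 TPM in WT 1 to 4 and 23.8, 28.7, 22.8 and 23.4 TPM in KO 1 to 4. The male groups overlapped: 3 of 4 KO libraries were above the highest WT library, KO 4 by less than the rounding, with KO 2 the farthest from it. Among females, Xbp1 read 19.0, 19.8, 21.1 and 18.6 TPM in WT 1 to 4 and 32.8, 27.9, 36.6 and 31.4 TPM in KO 1 to 4. Here every KO library was above every WT library, and all but female KO 2 were also above the highest male value of 28.7 TPM. Group means ± SD (n = 4) were 21.7 ± 1.64 in male WT, 24.7 ± 2.72 in male KO, 19.6 ± 1.11 in female WT and 32.2 ± 3.59 TPM in female KO. The KO minus WT difference in log2(TPM + 0.5) was 0.70 (SE 0.12) in females and 0.18 (SE 0.10) in males, where the median over all genes was 0.10 and 0.16. Scaling moved the female value to 0.55 with nuclear scaling, 0.66 with mitochondrial transcripts alone left out, and the male value to 0.01 with median-of-ratios factors. In bulk tissue, a change in how many cells express a gene and a change in RNA per cell cannot be told apart.

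The names of the libraries begin with 1 of 4 prefixes whose meaning is not stated, and some prefixes hold both genotypes of a sex. Within prefix 10, the single female KO library had 32.8 TPM of Xbp1 and the single WT library 19.0 TPM. Prefix 8b paired female KO 3, at 36.6 TPM, with 3 WT libraries of mean 19.8 TPM. Within prefix 9, mean Xbp1 was 25.0 TPM over 3 male KO libraries and 22.2 TPM over 2 male WT libraries. The KO library was higher in each of the female prefixes, by 0.77 and 0.87 on the log2 scale, and the male difference within prefix 9 was 0.16.

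Atf6 encodes the membrane-held transcription factor of the other branch. Male Atf6 levels were 5.72, 5.65, 7.36 and 7.59 TPM in WT 1 to 4 and 6.57, 7.40, 6.80 and 7.01 TPM in KO 1 to 4. The male KO values all lay inside the WT range. Among females, Atf6 read 6.94, 6.07, 7.54 and 6.28 TPM in WT 1 to 4 and 4.88, 5.74, 4.66 and 5.78 TPM in KO 1 to 4. Every female KO library was below every female WT library, and KO 1 and KO 3 were the lowest of all 16. The log2 difference was -0.32 (SE 0.12) in females, -0.48 with nuclear scaling and -0.38 with mitochondrial transcripts alone left out, where the groups overlapped: female WT 4, at 9.59, was below 3 of 4 KO libraries. That setting keeps the unmatched transcripts in the sum, 17.7% of TPM in female WT 4. With nuclear scaling, which leaves them out, female WT 4 read 13.1 and the highest female KO library 11.5. In males the log2 difference was 0.08 (SE 0.12) and turned to -0.08 with median-of-ratios factors. Within the female prefixes 10 and 8b, the differences were -0.47 and -0.46.

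Ern1 encodes IRE1 itself. Male Ern1 levels were 1.39, 1.56, 1.53 and 1.85 TPM in WT 1 to 4 and 1.71, 1.72, 1.91 and 1.93 TPM in KO 1 to 4. Among females, Ern1 read 2.16, 1.55, 1.997 and 1.81 TPM in WT 1 to 4 and 1.81, 1.69, 1.41 and 1.90 TPM in KO 1 to 4. Both sexes overlapped, with male WT 1 lowest and female WT 1 highest of all 16. The log2 difference was 0.16 (SE 0.13) in males and -0.11 (SE 0.16) in females. With nuclear scaling the highest female KO library read 3.50 and the lowest WT library, female WT 4, 3.80. With mitochondrial transcripts alone left out, the unmatched transcripts of female WT 4 stay in the sum. That library then read 2.77 and was below all 4 KO libraries, so the separation is not kept.

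Xbp1 was read by transcript because its mRNA is the substrate of IRE1. The annotation lists 4 transcripts: Xbp1-201, Xbp1-203 and Xbp1-204 are protein coding, and Xbp1-202 is a retained intron. Averaged over 16 libraries, Xbp1-201 held 81.5% of the gene's TPM, Xbp1-202 6.77%, Xbp1-204 6.40% and Xbp1-203 5.33%. Male Xbp1-201 levels were 16.6, 18.9, 16.8 and 18.1 TPM in WT 1 to 4 and 18.9, 23.6, 18.4 and 18.8 TPM in KO 1 to 4, which overlap. Among females, Xbp1-201 read 15.9, 16.5, 16.8 and 14.7 TPM in WT 1 to 4 and 25.5, 25.2, 30.7 and 24.5 TPM in KO 1 to 4. The female KO libraries were all above the WT libraries in this transcript, with a log2 difference of 0.71. Xbp1-202, at 1.20 ± 0.187 TPM in female WT and 2.21 ± 0.566 in female KO (n = 4), also did not overlap, while Xbp1-203 and Xbp1-204 did.

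The share of Xbp1-201 in the gene's TPM overlapped between the genotypes of each sex: 81.3% ± 3.37 in male WT, 80.6% ± 1.12 in male KO, 81.5% ± 2.50 in female WT and 82.5% ± 5.84 in female KO (SD, n = 4). Female KO 2 had the highest share of Xbp1-201, 90.2%, and the lowest share of Xbp1-203, 0.978%. In males the overlap was absent for Xbp1-203 alone, which read 0.889 ± 0.291 TPM in WT and 1.64 ± 0.134 in KO. Its share of the male gene total went from 4.07% in WT to 6.65% in KO, also with no overlap.

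**Figure D2:**
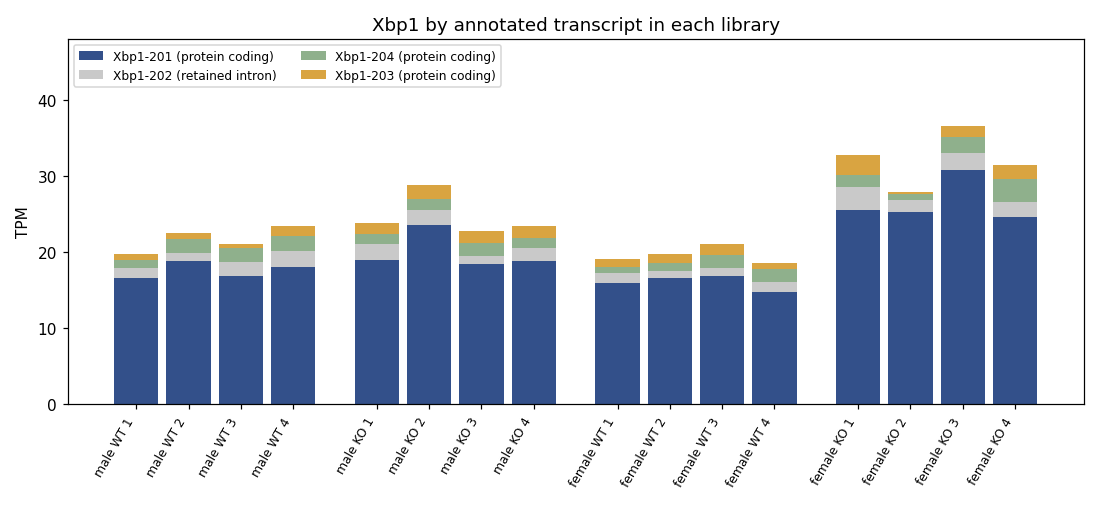
TPM of the 4 annotated Xbp1 transcripts (y axis, linear from 0), stacked for each of the 16 libraries (x axis). The tallest stack is female KO 3 at 36.6 TPM, and Xbp1-201 makes up between 77.4% and 90.2% of each stack.

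By the GENCODE M21 annotation, these TPM cannot tell the spliced form of Xbp1 mRNA from the unspliced form. The segment that IRE1 removes has 26 bases and lies at chr11:5524282-5524307 on the plus strand (GRCm38, GENCODE M21), inside exon 4 of Xbp1-201 and exon 3 of Xbp1-203 and Xbp1-204, within the coding part of all 3. No annotated Xbp1 transcript has an intron of 26 bases: the shortest introns have 300, 722 and 771 bases. With these structures, reads from both forms are counted in the same transcripts. The release behind the deposited values is not stated, so its own Xbp1 structures were not checked. With the segment, Xbp1-201 reads through 267 codons before a stop codon, and without it through 371, which is the shift in reading frame that the sensor brings about. The segment is shown because it marks what the deposited values leave unresolved, with the 26 bases in capitals and 20 bases of the transcript on each side, from the GENCODE M21 transcript sequence.
Xbp1-201: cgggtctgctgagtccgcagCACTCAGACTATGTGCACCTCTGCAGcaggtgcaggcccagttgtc

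Hspa5 encodes BiP, the main HSP70 chaperone of the ER lumen and the usual readout of the response. Male Hspa5 levels were 74.7, 102, 100.1 and 117 TPM in WT 1 to 4 and 95.0, 114, 103 and 117 TPM in KO 1 to 4. Among females, Hspa5 read 103, 83.2, 93.4 and 77.4 TPM in WT 1 to 4 and 86.3, 101, 84.1 and 108 TPM in KO 1 to 4. Both sexes overlapped, male WT 1 was the lowest library of all and male WT 4 the highest. The log2 difference was 0.14 (SE 0.15) in males, which turned to -0.04 with median-of-ratios factors, and 0.09 (SE 0.15) in females, which turned negative with both scalings and was 0.05 with mitochondrial transcripts alone left out. The female difference within prefix 10 was -0.25 and within prefix 8b -0.01.

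Hsp90b1 encodes GRP94, the HSP90 chaperone of the ER. Male Hsp90b1 levels were 51.3, 64.3, 57.2 and 67.6 TPM in WT 1 to 4 and 57.3, 63.7, 64.5 and 67.7 TPM in KO 1 to 4. Among females, Hsp90b1 read 69.0, 54.1, 64.3 and 48.8 TPM in WT 1 to 4 and 77.2, 68.3, 54.5 and 90.3 TPM in KO 1 to 4. Female KO 4 was highest of all 16 and female WT 4 lowest, and KO 2 and KO 3 lay inside the WT range. The log2 difference was 0.28 (SE 0.19) in females and 0.08 (SE 0.11) in males, and the male value was negative with both scalings. The female value was 0.05 with the prefix as a covariate, 0.17 without female KO 4, 0.16 within prefix 10 and -0.02 within prefix 8b.

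Calr encodes calreticulin, a calcium-binding lectin chaperone for glycoproteins. Male Calr levels were 94.0, 135, 109.6 and 115 TPM in WT 1 to 4 and 116, 123, 119.7 and 133 TPM in KO 1 to 4. Among females, Calr read 119, 94.9, 109.9 and 98.4 TPM in WT 1 to 4 and 141.5, 127, 97.4 and 155 TPM in KO 1 to 4. Here 3 of 4 female KO libraries were above the WT range, and KO 3 lay inside it. The log2 difference was 0.29 (SE 0.17) in females and 0.13 (SE 0.12) in males, where median-of-ratios factors turned it to -0.05. The female value was 0.07 with the prefix as a covariate, 0.25 within prefix 10 and -0.05 within prefix 8b. The gene's TPM came to 58.9% from Calr-201, and a retained intron, Calr-204, held 39.2%.

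The remaining helpers were less abundant. Pdia4, a protein disulfide isomerase, averaged 10.7 ± 1.11 TPM in male WT, 11.8 ± 1.80 in male KO, 9.95 ± 1.60 in female WT and 11.2 ± 0.858 in female KO, with 3 of 4 male KO libraries above the WT range and KO 1 below it. Dnajb9 (ERdj4), a co-chaperone of BiP, averaged 8.36 ± 2.45 in male WT, 8.03 ± 0.907 in male KO, 7.74 ± 2.10 in female WT and 10.1 ± 3.56 in female KO. Its highest library was female KO 4, at 15.4 TPM, and without that library the female log2 difference of 0.35 (SE 0.25) was 0.14, and with the prefix as a covariate 0.12. Sdf2l1, which acts with ER co-chaperones, averaged 1.33 ± 0.350 in male WT, 2.10 ± 1.01 in male KO, 1.47 ± 0.172 in female WT and 1.83 ± 0.577 in female KO. Male KO 4 read 3.52 and male KO 2 2.09 TPM, against 0.879 to 1.73 in male WT. Without male KO 4 the male log2 difference of 0.45 (SE 0.27) was 0.22, and with the prefix as a covariate 0.74. Groups overlapped for each of these 3 genes in both sexes.

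Herpud1 serves ER-associated degradation, in which misfolded proteins are sent back to the cytosol for destruction. Male Herpud1 levels were 37.1, 37.2, 43.6 and 53.8 TPM in WT 1 to 4 and 41.3, 46.8, 57.2 and 51.8 TPM in KO 1 to 4. Among females, Herpud1 read 40.7, 31.0, 35.5 and 29.6 TPM in WT 1 to 4 and 35.8, 47.9, 31.1 and 33.9 TPM in KO 1 to 4. Female KO 2 was the highest of the 8 female libraries, and groups overlapped in both sexes. The difference of males minus females was 0.36 (SE 0.11), and 0.09 with the prefix as a covariate. The KO minus WT difference was 0.20 (SE 0.15) in males and 0.11 (SE 0.17) in females, the latter negative with nuclear scaling, with the prefix and without female KO 2 (-0.02). Median-of-ratios factors took the male value to 0.03.

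In males, KO against WT compares the tissue with and without loss of Gdf15 in brown adipocytes on the high fat diet. By limma, 0 of 10 genes had an adjusted p under 0.05 and 0 had an unadjusted p under 0.05, where 0.00821% (1 of 12177) and 18.7% (2281) of all genes tested did. Without male WT 4, Herpud1 had an unadjusted p under 0.05. The gene past the threshold was Mfap5, a microfibril protein, at 2.51 TPM in WT and 8.74 in KO, named after its value was seen. Its call was kept in 2 of 8 runs that left out a library, at adjusted p up to 0.141, and lost with no minimum TPM and with blocks by replicate number. No member had every KO library above every WT library, or every KO below, where 9.54% and 0.673% of all genes did. The members' median log2 difference was 0.13 and 9 of 10 were positive, beside a median of 0.16 over all genes tested. Median-of-ratios factors moved the median of all genes to 0.00, and relative to that median 3 of 10 members were higher as deposited and 4 of 10 after those factors. Nothing is read from these counts, since the members were chosen with them known.

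In females, the same comparison found 0 of 10 members with an adjusted p under 0.05 and 2, Xbp1 and Atf6, with an unadjusted p under 0.05. Among 12141 genes tested, 0.0% (0) had an adjusted p under 0.05 and 17.1% (2077) an unadjusted one. Xbp1 was the 1 member with every KO library above every WT library and Atf6 the 1 with every KO below, beside 4.9% and 3.19% of all genes tested. The members' median log2 difference was 0.19, with 8 of 10 positive, and that of all genes 0.10. Median-of-ratios factors took these medians to 0.10 and 0.01, and nuclear scaling to 0.06 and -0.04, with 7 and 6 of 10 members positive. With mitochondrial transcripts alone left out they were 0.16 and 0.06, with 8 of 10 positive. Xbp1 had an unadjusted p under 0.05 in all alternatives. Atf6 did not with mitochondrial transcripts alone left out, a minimum of 5 TPM or blocks by replicate number, nor in 4 of 8 runs that left out a library, at p up to 0.0771, and Hsp90b1 and Calr did without female KO 3. With the prefix as a covariate the members' median was 0.000466 and Xbp1 was at 0.83. With all 16 libraries in a single fit, Xbp1 was past the threshold in females as well. The members were chosen with these levels known, so their p-values here are a description.

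**Figure D3:**
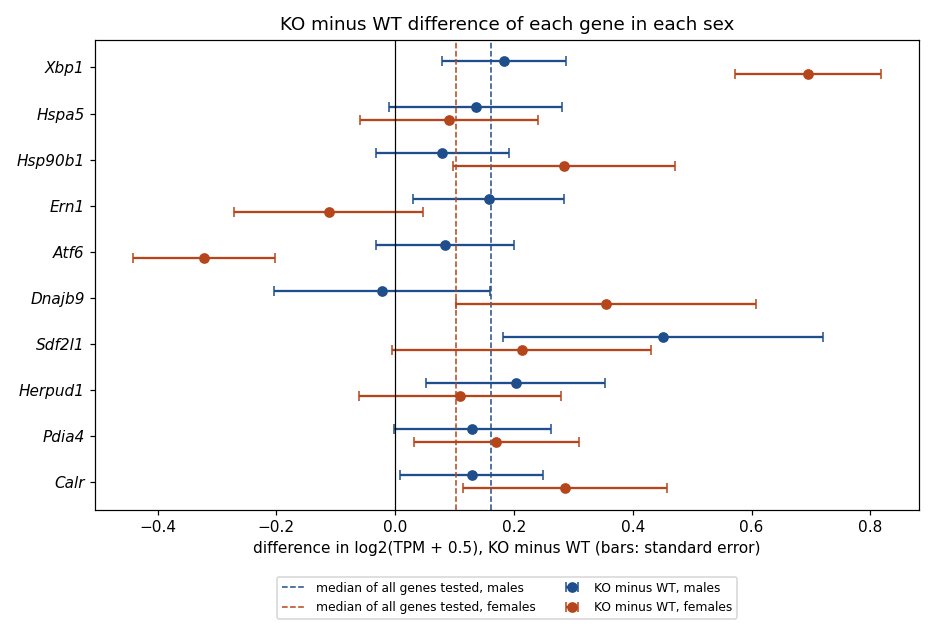
KO minus WT difference in log2(TPM + 0.5) (x axis) for each of the 10 genes (y axis) in males and in females, with whiskers of 1 standard error from limma (n = 4 per group). Dashed lines mark the median of all genes tested, 0.16 in males and 0.10 in females, and female Xbp1 (0.70) and female Atf6 (-0.32) lie farthest from theirs. Scaling turns the sign of several small values.

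The difference between the KO effects of the sexes, taken as males minus females over all 16 libraries, was -0.51 (SE 0.15) for Xbp1 and 0.41 (SE 0.16) for Atf6. By limma, 0 of 10 members had an adjusted p under 0.05, as did 0.0% (0) of 12210 genes tested, and 2 of 10, Xbp1 and Atf6, had an unadjusted p under 0.05, beside 14.2% (1737). Xbp1 kept that p in all alternatives, while Atf6 lost it with blocks by replicate number, with mitochondrial transcripts alone left out, and without male WT 2 or female WT 3, at p up to 0.136. Nuclear scaling added Ern1. The members' median was 0.00, and that of all genes 0.06. Here too nothing is read from the members' p-values, which rest on the levels used to choose them.

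Averaged over both sexes, the KO effect of Xbp1 was 0.44 (SE 0.07), and Xbp1 was the 1 member of 10 past an adjusted p of 0.05, as were 2.95% (360) of 12210 genes tested. At an unadjusted p under 0.05 the count was again 1 of 10, beside 24.0% (2930), and Atf6 joined it with median-of-ratios factors, nuclear scaling and the prefix. Of 16 runs that left out a library, Calr joined in 3, Sdf2l1 in 2, and Hsp90b1 and Pdia4 in 1 each. The call was lost with nuclear scaling, with the prefix as a covariate and with mitochondrial transcripts alone left out, at adjusted p up to 0.0845, and was kept in 16 of 16 runs that left out a library. Males and females compared over both genotypes gave 0 of 10 members at the adjusted threshold, beside 4.47% (546) of genes, and 1 of 10, Herpud1, at the unadjusted one, beside 21.3% (2606). Herpud1 passed the adjusted threshold only without female KO 2, and with the prefix as a covariate its unadjusted p was 0.564. Between the sexes, Atf6 was under an unadjusted p of 0.05 in 5 of 16 runs that left out a library and with no minimum TPM, Hspa5 without male WT 1, Xbp1 with median-of-ratios factors, and Hsp90b1 with those factors and with the prefix. Since the members were chosen with these levels known, calls kept or lost among them only describe the levels.

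Most pairs of the 10 genes were positively correlated from library to library within groups. After subtracting each group's mean of log2(TPM + 0.5), the 45 pairs had a median Pearson r of 0.55 over 16 libraries, and 41 (91.1%) were above 0. Over all 74535945 pairs of the 12210 genes tested, the median r was 0.225 and 71.4% were above 0. The points share library, scaling and RNA composition, and no test was made. The closest pair was Hsp90b1 with Calr (r = 0.90, Spearman's rho 0.90), followed by Hsp90b1 with Ern1 (r = 0.85, rho 0.90). Xbp1 had a median r of 0.03 with the other 9 genes, from -0.26 with Herpud1 to 0.26 with Dnajb9, and a median Spearman's rho of 0.185, up to 0.394, while Hsp90b1 had a median r of 0.74 and Hspa5 0.71. Sdf2l1 was also near 0 with 2 genes, Atf6 (r = 0.08) and Herpud1 (r = 0.08).

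By library, male WT 1 was lowest of all 16 for 3 genes and above the gene's median for 0, and female WT 4 was lowest for 5. Female KO 4 was highest for 3 genes, and male WT 4 and male KO 4 for 2 each. The TPM of the 10 genes added up to between 295 in female WT 4 and 456 in female KO 4. Female KO 3 was highest for Xbp1 and lowest for Atf6, and on average its genes sat -1.03 SD from their group means. The members' mean deviation had r = -0.19 with the mitochondrial share over 16 libraries, and Xbp1 -0.09.

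The genes most like Xbp1 in that same movement, among 7593 with a mean of at least 5 TPM, were Drg1 (r = 0.87, rho 0.87), Fbxl5 (0.78, 0.75), Gm5776 (0.78, 0.72), Nbdy (0.76, 0.71) and Sumo3 (0.76, 0.80), over 16 libraries. Without male KO 2 and female KO 3, the libraries farthest from the median of Xbp1, r was 0.85 for Drg1 and 0.62 for Fbxl5. With nuclear scaling of all libraries, r was 0.88 for Drg1, 0.87 for Fbxl5, 0.58 for Gm5776, 0.82 for Nbdy and 0.86 for Sumo3. Those nearest to Hspa5 were Stt3b (r = 0.96, rho 0.98), Glyr1 (0.96, 0.97), Atp6v1b2 (0.94, 0.95), Nars (0.93, 0.90) and Usp12 (0.93, 0.95). Stt3b is a catalytic subunit of the ER oligosaccharyltransferase. For the mean of the 10 genes, the list ran Fkbp4 (r = 0.96, rho 0.95), Zfp207 (0.95, 0.97), Pias2 (0.95, 0.90), Prkar1a (0.95, 0.89) and Ccny (0.95, 0.93), among 7586 genes. These are the highest of many correlations and were not tested.

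Of the 9 members with a promoter window, 4 held a match to an ER stress element. The members were listed as genes of the response these elements are named for. Matches among them are therefore a description and not an independent result. The windows searched run from 250 bases before to 50 bases after the start of a gene (RefSeq, GRCm38.p6), and 9 of 10 members have one. Atf6 has none there. The ER stress response element, CCAAT, then 9 bases, then CCACG, was found on either strand in the windows of Hspa5, Hsp90b1 and Calr, and in 0.119% (39) of 32851 windows in all. The related ERSE-II, ATTGG, then 1 base, then CCACG, was found in Herpud1 and in 0.0365% (12) of windows. The core of the UPR element, TGACG followed directly by TGG, was found in 0 of 9 members and in 0.676% (222) of windows. A match is a description of letters in a window and not of a factor's binding, and the windows of Xbp1, Ern1, Dnajb9, Sdf2l1 and Pdia4 held none of the 3 motifs.

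Among 146 other genes of the pathway lists with a window, ERSE was found in 6 (Dnajc3, Canx, Creld2, Pdia6, Syvn1 and Derl3) and ERSE-II in 2 (Dnajb11 and Krtcap2). The UPR element core was found in 10 of them (Nfe2l1, Txndc5, Txndc11, Ube2j1, Vcp, Sec23a, Sec24d, Kdelr3, Copb1 and Copb2). The 4 member windows with a match are printed 5′ to 3′ on the strand of the gene, to show where the elements lie, with each match in capitals. Hspa5 is chr2:34771840-34772139 on the plus strand, Hsp90b1 chr10:86705395-86705694 on the minus strand, Calr chr8:84846882-84847181 on the minus strand and Herpud1 chr8:94386179-94386478 on the plus strand. Hsp90b1 holds 2 matches, the second as the reverse complement, and the match of Calr is also a reverse complement.
Hspa5: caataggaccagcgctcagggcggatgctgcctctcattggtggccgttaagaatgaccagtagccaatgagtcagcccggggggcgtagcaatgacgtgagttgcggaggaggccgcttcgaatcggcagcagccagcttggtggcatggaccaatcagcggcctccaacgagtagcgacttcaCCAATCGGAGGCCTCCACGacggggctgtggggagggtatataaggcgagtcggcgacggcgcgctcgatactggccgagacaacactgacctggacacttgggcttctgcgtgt
Hsp90b1: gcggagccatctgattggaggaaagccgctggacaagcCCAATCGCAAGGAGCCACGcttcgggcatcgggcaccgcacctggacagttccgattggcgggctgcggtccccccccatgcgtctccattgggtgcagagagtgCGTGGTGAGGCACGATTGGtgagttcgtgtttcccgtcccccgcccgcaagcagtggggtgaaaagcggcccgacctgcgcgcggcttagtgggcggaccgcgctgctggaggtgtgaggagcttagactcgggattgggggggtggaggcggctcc
Calr: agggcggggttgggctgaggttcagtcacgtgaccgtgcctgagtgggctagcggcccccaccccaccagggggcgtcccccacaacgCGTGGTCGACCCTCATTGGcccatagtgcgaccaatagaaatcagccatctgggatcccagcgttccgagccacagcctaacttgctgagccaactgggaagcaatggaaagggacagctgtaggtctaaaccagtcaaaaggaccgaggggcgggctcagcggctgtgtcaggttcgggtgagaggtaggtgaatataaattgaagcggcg
Herpud1: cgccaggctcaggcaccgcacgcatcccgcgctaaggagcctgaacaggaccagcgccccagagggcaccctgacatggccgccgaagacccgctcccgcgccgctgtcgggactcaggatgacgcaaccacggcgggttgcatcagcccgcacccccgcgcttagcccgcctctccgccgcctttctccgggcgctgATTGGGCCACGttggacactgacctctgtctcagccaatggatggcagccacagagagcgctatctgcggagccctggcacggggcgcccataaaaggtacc

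For the 4 genes with such a match, the KO minus WT log2 differences were, in the order Hspa5, Hsp90b1, Calr and Herpud1, 0.09, 0.28, 0.29 and 0.11 in females and 0.14, 0.08, 0.13 and 0.20 in males. The groups overlapped for each in both sexes, the scalings turn several of these signs as given for each gene, and nothing is read from them.

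Beyond the 10 genes, 7 lists written by role cover 187 genes of ER folding and traffic, of which 185 were found. By limma, 0 of 177 tested in males and 0 of 176 in females had an adjusted p under 0.05. At an unadjusted p under 0.05, 35 were higher and 1 lower in male KO, beside 2151 and 130 of all 12177 genes, and 19 were higher and 9 lower in female KO, beside 1414 and 663 of 12141. The medians of the 7 lists together, 0.16 in males and 0.13 in females, lay near those of all genes, 0.16 and 0.10. The direction of these counts changed with the processing: median-of-ratios factors gave 10 higher and 16 lower in males, beside 1010 and 901 of all genes, and 15 higher and 18 lower in females, beside 1214 and 1264. In females, nuclear scaling gave 7 higher and 18 lower, beside 1044 and 1378 of all genes, the prefix as a covariate 1 and 10, beside 639 and 572, and mitochondrial transcripts alone left out 2 and 8, beside 1098 and 500. In males these gave 18 and 6, beside 1617 and 508, then 11 and 1, beside 922 and 91, and 18 and 6, beside 1618 and 505. Differences of single list genes given with an SE in what follows kept their sign under both scalings.

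Over both sexes, 2 of 176 list genes outside the members passed the adjusted threshold in the mean KO effect, beside 2.95% (360) of all 12210 genes. Ppic, a peptidyl-prolyl isomerase of the secretory pathway, rose by 0.46 (SE 0.11, adjusted p = 0.0415): it read 9.22 ± 1.53 TPM in male WT, 12.1 ± 0.752 in male KO, 8.43 ± 2.03 in female WT and 12.2 ± 1.67 in female KO (n = 4). In each sex, 3 of 4 KO libraries were above the WT range. Vldlr, a lipoprotein receptor listed with the PERK branch, fell by 0.38 (SE 0.08, adjusted p = 0.0313), from 25.8 ± 3.03 to 21.1 ± 1.31 TPM in males and from 24.6 ± 2.56 to 17.5 ± 2.16 TPM in females. Every KO library was below every WT library in both sexes. Ppic was called in 5 and Vldlr in 9 of 16 runs that left out a library, at adjusted p up to 0.0942 and 0.0715. Both calls were also lost with no minimum TPM, blocks by replicate number, the prefix as a covariate and mitochondrial transcripts alone left out, and that of Ppic with nuclear scaling, at adjusted p up to 0.222 for Ppic and 0.0991 for Vldlr. Over all 10 alternatives other than leaving out a library, the difference went from 0.33 to 0.48 for Ppic and from -0.51 to -0.37 for Vldlr.

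Among sensors and their processing, 30.8% of 13 genes in males and 0% in females had an unadjusted p under 0.05. Over all genes tested, 18.7% and 17.1% did. In male KO 4 were higher and in female KO 0, with list medians of 0.27 and 0.06. Under median-of-ratios factors these became 2 higher in males and 2 lower in females, under nuclear scaling 3 and 2, and under the prefix as a covariate 2 and 0. With mitochondrial transcripts alone left out, 3 were higher in males and 0 lower in females. Wfs1, an ER membrane protein that restrains ATF6, read 5.95 ± 0.335 TPM in male WT and 8.33 ± 1.07 in male KO, a log2 difference of 0.45 (SE 0.10). In females it read 6.12 ± 0.422 in WT and 4.76 ± 1.43 in KO, a difference of -0.37 (SE 0.19). Creb3l1, a relative of ATF6 that is cleaved in the same way, went from 1.19 ± 0.265 to 1.91 ± 0.197 TPM in males (0.52, SE 0.16). Tmbim6 (BAX inhibitor-1) was the most abundant of the list, with a mean of 199 TPM. Nfe2l1, an ER-bound factor that induces proteasome genes and the 1 of 176 list genes called between the sexes, beside 4.47% of all genes, was higher in males over both genotypes, by 0.37 (SE 0.10, adjusted p = 0.0441), and was called in 4 of 16 runs that left out a library, with adjusted p up to 0.103. With the prefix as a covariate the difference was 0.22 and the call was lost (adjusted p = 0.567), as it was with no minimum TPM, with blocks by replicate number and with mitochondrial transcripts alone left out. Its levels were 125 ± 22.1 in male WT, 157 ± 9.70 in male KO, 119 ± 17.3 in female WT and 98.7 ± 7.97 TPM in female KO.

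Of 27 ER chaperones outside the members, 40.7% in females and 14.8% in males had an unadjusted p under 0.05. Over all genes tested, 17.1% and 18.7% did. In females 9 were higher and 2 lower in KO, with a list median of 0.26. In males 4 were higher, with a list median of 0.16. With median-of-ratios factors 6 were higher and 2 lower in females, with nuclear scaling 3 and 2, with the prefix as a covariate 0 and 1, and with mitochondrial transcripts alone left out 0 and 2. The male direction was not kept: the counts were 2 and 3 with median-of-ratios factors. They were 3 and 3 with nuclear scaling or with mitochondrial transcripts alone left out, and 3 and 0 with the prefix. Lrpap1, the chaperone of LDL receptor relatives, read 19.5 ± 4.22 TPM in female WT and 26.2 ± 2.78 in female KO (0.44, SE 0.18). Hspa13, an HSP70 relative, read 3.26 ± 0.201 and 2.35 ± 0.384 TPM (-0.41, SE 0.14). Cdnf, an ER-resident trophic factor, read 3.25 ± 0.316 and 2.03 ± 0.744 TPM in females (-0.61, SE 0.22) and 3.07 ± 0.487 and 4.56 ± 0.767 TPM in males (0.50, SE 0.14). Tor1a, an ATPase of the ER lumen, was at 9.81 ± 1.21 and 13.1 ± 1.27 TPM in males (0.40, SE 0.12). Serpinh1, the collagen chaperone HSP47, was the most abundant of the list at a mean of 126 TPM, with differences of 0.54 (SE 0.23) in males and 0.44 (SE 0.17) in females.

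Disulfide formation had 2 of 19 genes higher in male KO, and 2 higher and 1 lower in female KO. In either direction this was 10.5% in males and 15.8% in females, beside 18.7% and 17.1% of all genes tested. With median-of-ratios factors, the male counts turned to 1 higher and 4 lower, and with the prefix as a covariate they were 1 and 0 in males and 0 and 2 in females. Leaving out mitochondrial transcripts alone gave 1 and 1 in males and 0 and 1 in females. Txndc5, a disulfide isomerase, read 12.9 ± 1.25 TPM in male WT and 16.6 ± 1.40 in male KO (0.36, SE 0.10). Ero1l, the oxidase that recharges the isomerases, read 6.84 ± 0.753 TPM in female WT and 5.37 ± 0.702 in female KO (-0.33, SE 0.13). Selenof, the most abundant of the list, had a mean of 129 TPM.

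ER-associated degradation had 6 of 31 genes higher in male KO, and 1 higher and 4 lower in female KO, with medians of 0.16 and 0.03. In either direction this was 19.4% in males and 16.1% in females, beside 18.7% and 17.1% of all genes tested. The male direction turned with median-of-ratios factors, to 1 higher and 5 lower, while the female counts became 1 and 7. With nuclear scaling they were 2 and 1 in males and 0 and 7 in females, and with the prefix 2 and 0, and 0 and 4. Leaving out mitochondrial transcripts alone gave 2 and 1 in males and 0 and 3 in females. In males, Ube2g2, a ubiquitin-conjugating enzyme, read 14.2 ± 2.26 TPM in WT and 18.3 ± 0.439 in KO, a difference of 0.37 (SE 0.12). In females, Sel1l, the adaptor of the HRD1 ligase, read 10.5 ± 0.550 TPM in WT and 7.91 ± 0.636 in KO (-0.39, SE 0.10), and Edem3, which trims mannose from misfolded glycoproteins, had a difference of -0.50 (SE 0.15). Rnf185, a ubiquitin ligase, was at 9.57 ± 1.73 and 13.03 ± 1.39 TPM in females (0.44, SE 0.15). Vcp, the ATPase that extracts substrates, had the highest mean, 84.9 TPM.

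Translocation and glycosylation had 8 of 38 genes higher and 0 lower in male KO, and 6 higher and 0 lower in female KO. That is 21.1% and 15.8% of the list, beside 18.7% and 17.1% of all genes tested in either direction. Median-of-ratios factors changed the counts to 2 and 2 in males and 4 and 1 in females. In males the counts were 4 and 0 with nuclear scaling or with mitochondrial transcripts alone left out, and 1 and 0 with the prefix. In females they were 3 and 1, 1 and 0, and 0 and 0. Srprb, of the signal recognition particle receptor, read 9.34 ± 1.02 TPM in male WT and 11.6 ± 0.260 in male KO (0.31, SE 0.10), and Sec61a1, of the translocation channel, 16.002 ± 2.19 and 19.7 ± 0.476 (0.30, SE 0.11). Ostc, of the oligosaccharyltransferase, read 6.75 ± 1.11 TPM in female WT and 9.35 ± 0.787 in female KO (0.45, SE 0.14), and Sec62 had a female difference of 0.40 (SE 0.17). Spcs1, of the signal peptidase, was the most abundant, at a mean of 53.6 TPM. ER to Golgi transport had 10 of 34 genes higher and 0 lower in male KO, and 0 higher and 1 lower in female KO. That is 29.4% and 2.94% of the list, beside 18.7% and 17.1% of all genes tested in either direction. For this list the male counts were 1 and 0 with median-of-ratios factors and 2 and 0 with the prefix. They were 4 and 0 with nuclear scaling or with mitochondrial transcripts alone left out. Examples from this list are Sec31a of the COPII coat, at 37.2 ± 3.53 and 46.2 ± 2.30 TPM in males (0.31, SE 0.10), and Arfgap3, which acts on COPI vesicles, at 3.44 ± 0.538 and 4.69 ± 0.541 TPM (0.40, SE 0.13). The cargo receptor Tmed2 had the highest mean, 126 TPM.

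The PERK branch, the third arm of the response, had 1 gene higher and 1 lower in each sex, of 15 tested in males and 14 in females. That is 13.3% and 14.3%, beside 18.7% and 17.1% of all genes tested in either direction. With the prefix as a covariate the counts were 0 and 1 in males and 1 and 2 in females. With median-of-ratios factors the counts were 1 and 2 in males and 0 and 2 in females. With nuclear scaling they were 1 and 1 in males and 0 and 2 in females. Leaving out mitochondrial transcripts alone gave 1 and 1 in each sex. Atf5, a transcription factor that this branch translates under stress, was its most abundant gene and read 60.5 ± 12.3 TPM in male WT and 86.0 ± 9.02 in male KO (0.52, SE 0.17), and 80.1 ± 11.9 and 67.2 ± 8.40 TPM in female WT and KO (-0.25, SE 0.16). The gene lower in both sexes was Vldlr, with differences of -0.27 (SE 0.10) and -0.48 (SE 0.13).

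Markers of other cell types moved with some of these groups. The 9 of 9 listed endothelial genes had a mean of at least 1 TPM, none was at 0, and Egfl7 was the most abundant at 141 TPM. Their summed TPM was 338, 232, 308 and 359 in female WT 1 to 4 and 776, 433, 387 and 568 in female KO 1 to 4, with every KO library above every WT library, as for Xbp1. In males the sums were 255, 507, 321 and 400.1 in WT 1 to 4 and 397, 468, 434 and 428 in KO 1 to 4, which overlap. In females 8 of 9 endothelial genes were higher at an unadjusted p under 0.05, beside 1414 of all 12141 genes, and in males 2 of 9, beside 2151 of 12177. Their part in the Xbp1 difference was not tested.

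Summed macrophage and fibroblast markers did not overlap between the genotypes in males. Of 12 macrophage genes, 10 had a mean of at least 1 TPM, none was at 0 throughout, and Lyz2 was the most abundant at 40.9 TPM. Their sums were 48.9, 97.2, 60.1 and 92.8 TPM in male WT 1 to 4 and 123, 175, 136 and 178 in male KO 1 to 4, with no overlap, and 83.1 ± 29.6 in female WT and 96.4 ± 16.1 in female KO. All 10 fibroblast genes had a mean of at least 1 TPM, and Col3a1 was the most abundant at 74.8 TPM. Their sums were 134, 188, 119.8 and 209 TPM in male WT 1 to 4 and 255, 268, 264 and 258 in male KO 1 to 4, again with no overlap, and 185 ± 27.8 in female WT and 209.9 ± 43.0 in female KO. At an unadjusted p under 0.05, 9 of 10 macrophage genes tested and 7 of 10 fibroblast genes, Mfap5 among them, were higher in male KO, beside 2151 of 12177, and 1 and 0 in female KO. The part of these cells in the male values of the pathway lists was not tested.

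Plasma cells hold much ER and much Xbp1. Of 14 genes, 4 had a mean of at least 1 TPM, Ighg1 was at 0 in every library, Jchain ranged from 0.0481 to 0.578 TPM and Mzb1 from 0 to 0.341 TPM. Igkc ranged from 1.47 to 8.11 TPM and Sdc1 from 0.676 to 1.82 TPM, both highest in female KO 1. The most abundant was Ighm, at a mean of 27.6 TPM, and the list summed to 25.6 ± 9.82 TPM in female WT and 23.5 ± 6.76 in female KO. Of the 4 tested genes, 3 had a positive difference in females, beside 62.7% of all genes, and 0 had an unadjusted p under 0.05. The median log2 difference was 0.43, with Ighm at -0.69. Irf4 reached 11.8 TPM in female KO 1. The part of these genes in the Xbp1 values was not tested. In males the list summed to 31.4 ± 10.6 in WT and 66.8 ± 32.5 in KO, which overlap. Male Ighm levels were 12.0, 18.4, 19.9 and 38.4 TPM in WT 1 to 4 and 18.2, 97.1, 59.6 and 63.0 in KO 1 to 4. The male differences of the 4 tested genes ran from -0.73 for Irf4 to 1.30 for Ighm, with a median of 0.02. At an unadjusted p under 0.05, 1 was higher and 1 lower, beside 2151 and 130 of 12177 genes. None of 11 B and T cell genes had a mean of at least 1 TPM, with Cd79a the highest at 0.807 TPM and sums from 3.06 to 9.14 TPM. Brown adipocyte genes summed to 18446 ± 2706 TPM in male WT, 17661 ± 779 in male KO, 14846 ± 2961 in female WT and 18285 ± 3347 in female KO, with Fabp4 the most abundant at 6328 TPM. Skeletal muscle genes, 9 of 9 above 1 TPM on average and led by Acta1 at 275 TPM, summed to between 1.99 and 4176 TPM, with the widest scatter of any list and overlap in both sexes.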

How the data were processed

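Per the labels, the authors assigned single-end reads of stranded poly(A) RNA from 16 BAT samples to transcripts with kallisto 0.46.2 and named genome build GRCm39; the transcript release is not stated. The deposited values are TPM. They were matched without version to GENCODE mouse M21 (GRCm38) and summed per symbol; 2387 of 137438 transcripts had no match. The authors used DESeq2, which needs counts, so limma 3.58.1 (lmFit, eBayes with trend) in R 4.3.3 was fitted to log2(TPM + 0.5) for genes with a mean of at least 1 TPM, for KO against WT in each sex (8 libraries each) and, over 16 libraries, for the difference of the KO effects, their mean and the sexes. P-values are two-sided and adjusted by Benjamini-Hochberg over all genes tested, with a threshold of 0.05. The procedure was tested on simulated data. Python 3.11.15 and pandas 2.3.3 did the rest. Depth per sample is unknown, as the table holds no counts.

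The members and lists were chosen with earlier results of these data known. Named genes were all 10 members; from each of 7 pathway lists the gene with the highest mean TPM, every gene past the adjusted threshold, and in each sex up to 2 genes higher and 2 lower with the smallest p among those with an unadjusted p under 0.05 and no overlap of KO and WT; the 5 genes most like Xbp1, Hspa5 and the members' mean; Gdf15; and the most abundant marker of each of 7 cell type lists. Mfap5, Gm29216, the plasma cell genes and endothelial sums singled out were named after their values were seen. Alternatives were pseudocounts of 1 and 0.1, no minimum and a minimum of 5 TPM, median-of-ratios factors, nuclear genes only (without mitochondrial genes or unmatched transcripts), eBayes without a trend, blocks by replicate number, the name prefix as a covariate, a fit of all 16 libraries, and leaving out each library. Leaving out mitochondrial transcripts alone was added after seeing the data. Hm13 and Tusc3 had no symbol in the annotation used and were not analysed here.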

Additional observations from a re-analysis of the deposited data

Results flagged for a closer look

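In 100 groups of 4 libraries, 8 had a highest or lowest library whose gap to its nearest neighbour relative to the group's range exceeded Dixon's 95% critical value, which chance alone passes in about 1 in 20 groups. Of the deleted gene, female KO 3 read 0.0794 TPM of Gdf15, with the other female KO libraries at 0. For the main Xbp1 transcript, male KO 2 read 23.6 TPM of Xbp1-201, with the next library at 18.9, and female KO 3 read 30.7 TPM, with the next at 25.5. Xbp1-204 was at 0.946 TPM in male WT 1, with the next at 1.82. Female WT 4 had 17.7% of its TPM in transcripts with no match, with the next female WT library at 0.450%. The fibroblast sum of female WT 3 was 227 TPM, with the next at 172. Skeletal muscle genes summed to 1260 TPM in female WT 2, with the next at 81.9, and to 3770 TPM in female KO 3, with the next at 359. Among the 10 genes themselves, no total per gene stood apart in this way.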

How the results depend on the processing

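The number of genes past the adjusted threshold moved with most choices, and the cause was not tested unless a smaller or larger set of genes or libraries was fitted. In males, 1 gene became 2 with a pseudocount of 0.1, 0 with no minimum or with blocks by replicate number, 7 with median-of-ratios factors, 12 with nuclear genes only, which also drops transcripts with no match, 12 with mitochondrial transcripts alone left out (chosen after seeing the data), 6 with the prefix as a covariate and 38 with all 16 libraries in a single fit. In females, 0 became 1 with those blocks, 8 with the prefix and 5 with all 16 libraries. The difference of the KO effects went from 0 to 1 with no trend. The mean KO effect went from 360 to 54 with no minimum, 177 with a minimum of 5 TPM, 543 with nuclear genes only and 12 with the prefix. Males against females went from 546 to 262 with no minimum, 93 with the prefix and 303 with mitochondrial transcripts alone left out. Leaving out each library gave 0 to 5 genes in males, 0 to 9 in females, 0 to 3 for the difference of effects, 31 to 1055 for the mean effect and 194 to 1021 for the sexes. With median-of-ratios factors the split of the mean effect went from 317 higher and 43 lower to 235 and 222.

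The members' median difference moved beyond the spread between replicates in 4 of 111 alternatives: in males from 0.13 to -0.0373 with median-of-ratios factors, and with the prefix in females from 0.19 to 0.000466, for the difference of effects from 0.00 to 0.18, and for the sexes from 0.01 to -0.17. Single members' differences stayed within that spread in 1077 of 1100 alternatives, medians of lists in 748 of 777, and counts of lists within 1.5 times in 727 of 812. Over the alternatives other than leaving out a library, female Xbp1 ranged from 0.55 to 0.83 and female Atf6 from -0.48 to -0.30, and over those leaving out a library from 0.63 to 0.76 and from -0.37 to -0.27. In the mean KO effect, Xbp1 was called in 7 of 10 other alternatives, at adjusted p from 0.0128 to 0.0845. Its call in females with all 16 libraries had an adjusted p of 0.0197. Xbp1 was chosen with these levels known, so its calls only describe them. Herpud1 between the sexes had an adjusted p of 0.0279 without female KO 2, with a range from 0.0279 to 0.171 over libraries left out and from 0.0662 to 0.864 over the other alternatives, where its difference went from 0.36 to 0.09 with the prefix.

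The calls of other genes were lost without any 1 of several libraries: Vldlr without male WT 1 or 3, male KO 2, 3 or 4, or female KO 1 or 4; Ppic without male WT 1, 3 or 4, any male KO, female WT 2 or 4, or female KO 1 or 4; Nfe2l1 in 12 of 16 cases. All 3 calls were also lost with no minimum TPM, with blocks by replicate number, with the prefix and with mitochondrial transcripts alone left out, and Ppic with nuclear genes only, at adjusted p up to 0.222 for Ppic, 0.0991 for Vldlr and 0.567 for Nfe2l1. No sign turned for these 3. Same-numbered WT and KO libraries were not paired: correlations of their deviations ran from -0.117 to 0.349 and 3 of 8 matched best with their own number. Limits are that the depth is unknown, that TPM are shares, that 4 libraries a group leave wide errors, and that spliced Xbp1 is not resolved. The prefixes and genotypes are also only partly separable in each sex. In males, prefix 9 alone holds both genotypes, with 2 WT and 3 KO libraries.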
